A study of Mus musculus with 12 samples.

Results

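The genes described here are 8 autosomal mouse genes that are known as retrogenes active in meiosis: Pgk2, Pdha2, Cstf2t, Utp14b, Rpl10l, Rbmxl2, Rasl2-9 and Pabpc2. They were chosen by name, with earlier results of these data known. A gene's value was read from the probe whose annotated symbol matched and whose mean over the 12 arrays was highest. Of the 8 genes 7 had such a probe, among 19057 genes with a named probe in the series. Rpl10l had none. RNA came from whole testes of C57Bl/6N mice in 4 groups of 3 biological repeats, with 1 Illumina bead array per sample: Topaz1-/- (KO) at 20 days after birth (P20), wildtype (WT) at P20, KO at 15 days (P15) and WT at P15. Topaz1 is a germ cell factor that male meiosis requires, and the labels describe its loss as a knockout without giving the design of the allele or saying whether the WT animals were littermates. The comparisons ask how the genes differ between P20 and P15 in each genotype, and between KO and WT at each age.

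A retrogene is a copy that arose when a processed messenger RNA was reverse transcribed and inserted elsewhere in the genome, usually without introns. During male meiosis the X and Y chromosomes are silenced in pachytene spermatocytes, a process called meiotic sex chromosome inactivation, so that X-linked genes for basic cell functions are not transcribed there. Many such genes have an autosomal retrogene that is transcribed in spermatocytes. Of the 8 genes 6 derive from X-linked parents (Pgk1, Pdha1, Cstf2, Utp14a, Rpl10 and Rbmx), while the parents of Rasl2-9 and Pabpc2, Ran on chromosome 5 and Pabpc1 on chromosome 15, are autosomal. In the mouse the first pachytene spermatocytes appear near the younger of the sampled ages and are abundant at the older one.

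Levels are given as log2 of the quantile-normalised intensity plus 50, and a probe was taken as above background where it exceeded 7.53 on this scale. The median raw intensity of an array ran between 128.2 and 143.4, and 49.5% of the probes were above background on each array. The first principal component, with 81.2% of the variance, separated the ages. No probe was named Topaz1, so that the knockout could not be checked at its own transcript. Tests were made with limma on all 45281 probes, with Benjamini-Hochberg adjustment and a threshold of 0.05, and each log2 change is given with its standard error (SE) from that fit.

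Pgk2, Pabpc2, Rasl2-9 and Rbmxl2 were detected and all 4 were higher at P20 than at P15 in KO testes and in WT testes. The increases of the first 3 were 13.5-fold to 46.9-fold, and that of Rbmxl2 was 1.66-fold in KO and 1.71-fold in WT testes. Thus 4 of the 7 genes with a probe passed the test as higher and 0 as lower in each genotype. Of all probes 10.1% were higher and 15.5% lower at P20 in KO testes, and 8.28% were higher and 11.8% lower in WT testes. The median log2 change of the 7 was 0.74 in KO and 0.77 in WT testes, beside -0.02 over all named genes in each genotype. Each median of the 7 is the value of Rbmxl2, with the other 3 detected genes above it and the 3 undetected ones below. Pdha2, Cstf2t and Utp14b were not above background on any array, so only the other 4 could be followed with age. Levels in whole testes do not show which cells transcribe a gene, so the description as active in meiosis was not tested.

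**Figure D1:**
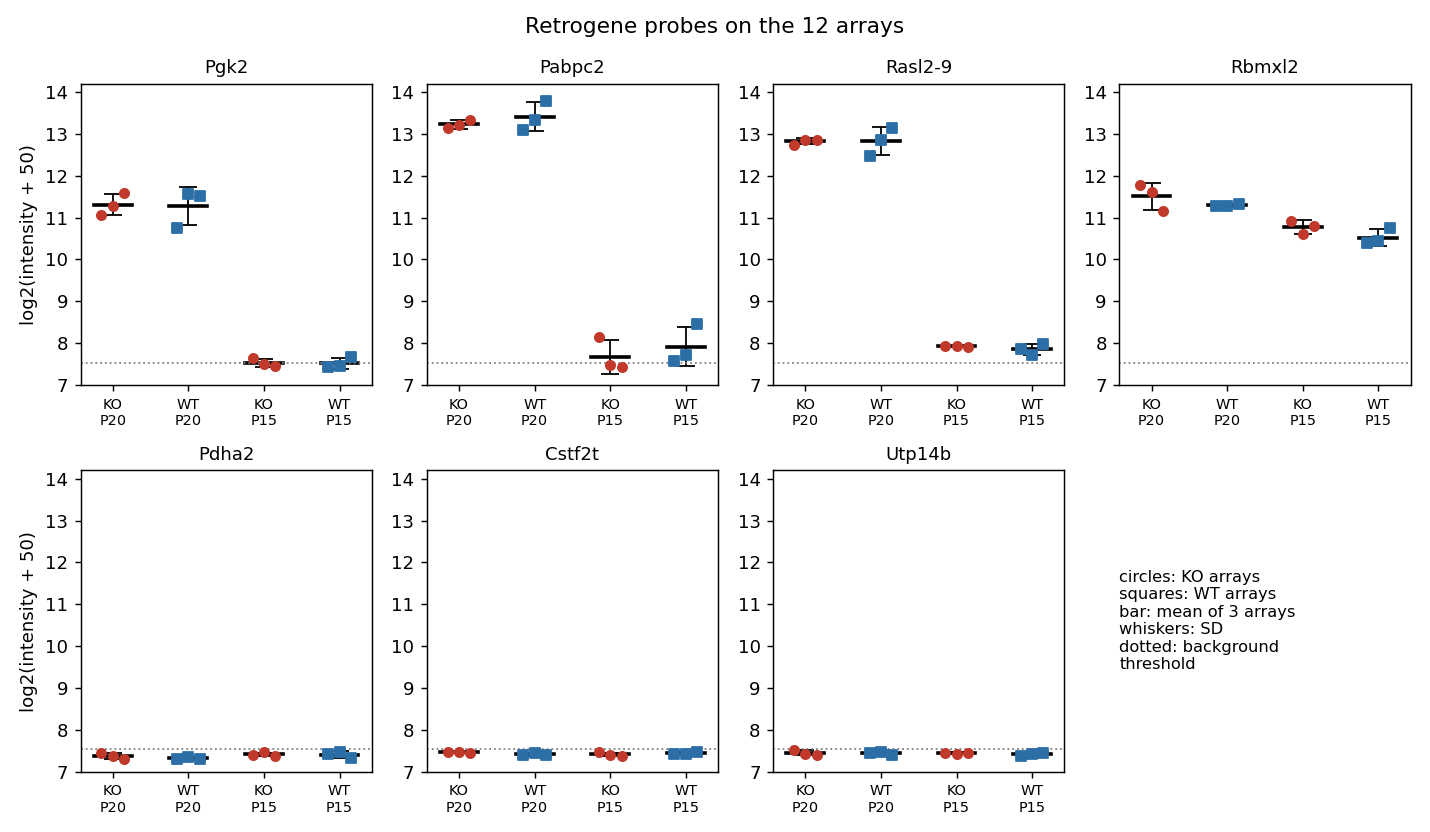
Levels of the 7 retrogene probes on each of the 12 arrays, as log2(intensity + 50), with circles for KO, squares for WT, bars for the mean and whiskers for the SD of 3 arrays, and a dotted line at the background threshold of 7.53. Pgk2, Pabpc2 and Rasl2-9 lie above 10.7 at P20 and near the line at P15 in both genotypes, Rbmxl2 is high in all groups, and Pdha2, Cstf2t and Utp14b stay under the line.

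Pgk2, on chromosome 17, encodes the phosphoglycerate kinase of the germ line, one of the ATP-producing enzymes of glycolysis. Its level was 11.07, 11.28 and 11.58 in KO testes at P20 and 10.76, 11.55 and 11.51 in WT testes at P20. At P15 it was 7.64, 7.50 and 7.46 in KO testes and 7.43, 7.47 and 7.67 in WT testes, where 1 of 3 arrays of each genotype was above background. The ages did not overlap in either genotype, and the lowest of the 6 values at P20 came from 1 WT array. The increase with age was 3.78 ± 0.20 (SE) on the log2 scale in KO testes (13.7-fold, limma adjusted p = 5.83e-07) and 3.75 ± 0.20 in WT testes (13.5-fold, adjusted p = 1.16e-06). With normexp background correction and an offset of 16 the log2 changes were 5.75 in KO and 5.77 in WT testes, so that the fold depends on how background is treated. In whole testes, a difference in the number of cells of a type cannot be told apart from a difference in RNA per cell.

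Pdha2, on chromosome 3, encodes the testis form of the E1 alpha subunit of pyruvate dehydrogenase, which feeds pyruvate into the citric acid cycle. Its probe was between 7.30 and 7.48 on the 12 arrays, below the background threshold throughout. The probes of Sycp3 and Dmc1, genes of early meiosis, were also below background on all arrays. A low level of Pdha2 was therefore not told apart from a probe that does not report its transcript.

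Rbmxl2, on chromosome 7, encodes hnRNP G-T, a splicing regulator of male germ cells. Its level at P20 was 11.78, 11.60 and 11.15 in KO testes and 11.27, 11.28 and 11.34 in WT testes. At P15 it was 10.93, 10.61 and 10.79 in KO testes and 10.38, 10.43 and 10.75 in WT testes. The P20 arrays were all above the P15 arrays of their genotype, and unlike the other detected genes Rbmxl2 was far above background at P15. The increase was 0.74 ± 0.15 in KO testes (adjusted p = 0.00441) and 0.77 ± 0.15 in WT testes (adjusted p = 0.0047). A second, dimmer probe of Rbmxl2, between 7.77 and 8.61 on the 12 arrays, increased by 0.35 ± 0.11 in KO testes (adjusted p = 0.0378), and its log2 change in WT testes was 0.17 ± 0.11 (adjusted p = 0.35).

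Pabpc2, on chromosome 18, encodes a testis poly(A)-binding protein, one of the proteins that coat the tails of messenger RNAs. Its level at P20 was 13.13, 13.22 and 13.34 in KO testes and 13.10, 13.34 and 13.79 in WT testes. At P15 it was 8.14, 7.47 and 7.42 in KO testes, with 1 of 3 arrays above background, and 7.57, 7.72 and 8.45 in WT testes, with 3 of 3 above it. The P15 arrays were spread, with 1 KO array and 1 WT array standing above the others of their group, yet far below every P20 array. The increase was 5.55 ± 0.26 in KO testes (46.9-fold, adjusted p = 3.1e-07) and 5.49 ± 0.26 in WT testes (45.1-fold, adjusted p = 6.21e-07). In the order of all named genes by this increase Pabpc2 stood at rank 5 in KO and at rank 1 in WT testes.

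Cstf2t, on chromosome 19, encodes the germ line variant of the RNA-binding subunit of the cleavage stimulation factor, which acts in 3' end formation of messenger RNAs. It lies inside Prkg1 on the opposite strand. Its probe was below background on all 12 arrays, with a mean of 7.46 ± 0.02 (SD, n = 3) in KO and 7.41 ± 0.03 in WT testes at P20.

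Rasl2-9, on chromosome 7, encodes a testis copy of the Ran GTPase, which drives transport between nucleus and cytoplasm. It was 12.74, 12.86 and 12.86 in KO testes and 12.47, 12.86 and 13.14 in WT testes at P20, against 7.93, 7.92 and 7.91 in KO and 7.86, 7.71 and 7.98 in WT testes at P15. All 12 arrays were above background, and the KO arrays of each age lay close together. The increase was 4.90 ± 0.14 in KO testes (29.8-fold, adjusted p = 2.2e-08) and 4.98 ± 0.14 in WT testes (31.5-fold, adjusted p = 2.3e-08). Rasl2-9 stood at rank 19 in KO and at rank 5 in WT testes among all named genes by this increase. With the normexp correction the highest log2 changes of Rasl2-9 were 6.11 in KO and 6.30 in WT testes, and those of Pabpc2 were 7.41 in KO and 6.88 in WT testes.

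Utp14b, on chromosome 1, encodes a component of the machinery that processes ribosomal RNA for the small subunit, and its loss underlies juvenile spermatogonial depletion in the mouse. It lies inside Acsl3 on the same strand. Its probe was below background on all 12 arrays, with a mean of 7.46 ± 0.06 (SD, n = 3) in KO and 7.44 ± 0.05 in WT testes at P20. Rpl10l, the germ line copy of a protein of the large ribosomal subunit on chromosome 12, was not measured, and neither was its parent Rpl10.

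Markers of pachytene spermatocytes moved with these increases. Of 15 such markers 14 were measured, and 11 were higher at P20 in KO and 10 in WT testes, with a median log2 change of 1.99 in KO and 1.76 in WT testes. Of all named genes 13.4% were higher and 21.6% lower at P20 in KO testes. In WT testes 11.2% were higher and 16.5% lower. The largest changes were those of Adam3, a sperm surface protein gene, with 5.29 ± 0.14 in KO and 4.75 ± 0.14 in WT testes, and Ldhc, the germ cell lactate dehydrogenase, with 4.29 ± 0.77 in KO and 3.60 ± 0.77 in WT testes. Mybl1 and Adam2 were below background on all arrays. The summed intensity of the list was 115300 to 120300 in KO and 91770 to 109200 in WT testes at P20, and 10850 to 27160 in KO and 9609 to 30830 in WT testes at P15. At P20 it was lowest on WT array 1, which also gave the lowest P20 levels of Pgk2, Rasl2-9 and Pabpc2. At P15 it was highest on KO array 1 and WT array 3, which also gave the highest P15 levels of Pgk2 and Pabpc2 in their groups. Of 9 measured round spermatid markers 0 were higher at P20 by limma in either genotype, and their median log2 change was 0.02 in KO and 0.07 in WT testes, while Tnp2 and Tssk1 were below background throughout. The summed intensity of these markers at P20 was 1235 to 1264 in KO and 1298 to 1692 in WT testes. Of their 9 log2 changes between KO and WT testes at P20, 2 were above 0 and 0 passed by limma. Odf1 had -0.59, Spaca1 -0.45 and Acrv1 -0.45, each lower on every KO array than on any WT array. Prm1 with 0.07 and Tssk1 with 0.03, both at or below background, were higher on every KO array than on any WT array. The share of all probes without overlap was not computed, so this only describes these markers. Sertoli cell markers were lower at P20, 8 of 9 in KO and 6 of 9 in WT testes, with a summed intensity of 48900 to 54610 in KO and 61280 to 64030 in WT testes at P20, against 73250 to 79460 in KO and 77810 to 84690 in WT testes at P15. Of 8 spermatogonial markers 5 were lower and 1 was higher in KO testes at P20, and 4 were lower and 1 was higher in WT testes. Between KO and WT testes at P20, 12 of the 14 pachytene marker changes were above 0 and 1 passed as higher by limma. Of the 9 Sertoli marker changes 0 were above 0 and 1 passed as lower. Of all named genes 0.992% passed as higher and 0.404% as lower there. The part of these cell types in the increases, or in the comparison of KO and WT testes, was not tested.

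The genes with the most similar profile over the 12 arrays were sought among 12080 named genes above background in a group. For Pgk2 these were Slc13a5, Tex22 and Pudp, with Pearson r of 0.9995, 0.9993 and 0.9988. For Pabpc2 they were Eid3, Atp8b3 and Cfap45, with r of 0.9986, 0.9981 and 0.998. For Rasl2-9 they were Slc22a16, Ccdc30 and Ppp3r2, with r of 0.9991, 0.9987 and 0.9986. The closest to Rbmxl2 were less close, with 0.9747 for Chchd6, 0.9739 for Usp42 and 0.9693 for Efcab2. The arrays form 2 clusters by age, so these values mostly describe that shared contrast, and genes on 1 set of arrays share its errors.

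The sequences before the start sites are shown for Pgk2, Rasl2-9 and Rbmxl2, since the first 2 were near background at P15 and the third was not, and for the parent Pgk1. Each line holds the 250 bases before the start in the direction of transcription, from RefSeq on GRCm38.p6, at chr17:40208610-40208859 on the minus strand for Pgk2, chr7:5125951-5126200 on the minus strand for Rasl2-9, chr7:107209195-107209444 on the plus strand for Rbmxl2 and chrX:106186850-106187099 on the plus strand for Pgk1. Capitals mark matches on either strand to AACNGNC, the core site of MYB factors, or GGGCGG, the GC box. The motifs TGACGTCA and TGACG, the full and shortened site of CREB and CREM factors of which the second lies within the first, were searched too.
Pgk2: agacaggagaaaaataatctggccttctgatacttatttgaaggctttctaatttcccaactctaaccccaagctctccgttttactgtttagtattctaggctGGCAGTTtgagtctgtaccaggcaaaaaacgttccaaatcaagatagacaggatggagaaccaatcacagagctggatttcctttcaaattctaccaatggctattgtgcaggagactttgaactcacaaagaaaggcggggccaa
Rasl2-9: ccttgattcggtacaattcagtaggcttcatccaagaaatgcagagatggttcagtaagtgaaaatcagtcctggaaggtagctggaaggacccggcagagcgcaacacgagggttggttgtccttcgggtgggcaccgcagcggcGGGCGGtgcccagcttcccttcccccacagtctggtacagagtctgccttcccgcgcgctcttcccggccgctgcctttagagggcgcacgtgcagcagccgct
Rbmxl2: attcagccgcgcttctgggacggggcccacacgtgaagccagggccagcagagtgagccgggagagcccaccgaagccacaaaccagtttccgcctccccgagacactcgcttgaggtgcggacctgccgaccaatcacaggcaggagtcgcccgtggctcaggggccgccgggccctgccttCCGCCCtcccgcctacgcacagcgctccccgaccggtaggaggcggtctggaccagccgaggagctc
Pgk1: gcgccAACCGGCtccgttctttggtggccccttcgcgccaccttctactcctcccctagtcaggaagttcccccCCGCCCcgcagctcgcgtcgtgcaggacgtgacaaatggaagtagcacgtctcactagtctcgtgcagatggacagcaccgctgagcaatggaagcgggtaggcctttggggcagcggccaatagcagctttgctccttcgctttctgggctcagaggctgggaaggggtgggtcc

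The 3 retrogene sequences differed in base composition. That of Pgk2 had 3 CpG and 42% G and C, that of Rasl2-9 had 17 CpG and 60.4%, and that of Rbmxl2 had 23 CpG and 70%. The parent sequence of Pgk1 had 17 CpG and 62.8%, and the median of all 32841 RefSeq promoters was 6 CpG and 52.4%. The Pgk2 sequence held 1 match to AACNGNC, at -146 to -140 from the start, which 27.7% of all promoters hold. Rasl2-9 (-104 to -99) and Rbmxl2 (-67 to -62) each held 1 match to GGGCGG, found in 32.7% of all promoters. None of the 3 held TGACG, found in 17.8%, or TGACGTCA, found in 1.55%. A match in letters is a description only, and its absence says only that these letters are not in this window.

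Of the 5 X-linked parents with a probe 4 were lower at P20 than at P15 in KO testes and 3 in WT testes, and 0 were higher. Their median log2 change was -0.53 in KO and -0.55 in WT testes. Of 711 X-linked genes 41.1% were lower in KO and 30.4% in WT testes, and the median was -0.09 in KO and -0.07 in WT testes. Of all named genes 21.6% were lower in KO and 16.5% in WT testes. All 5 parents but only 421 of the 711 X-linked genes were above background in a group, so neither the shares called nor the medians are directly comparable. Of the 2 autosomal parents Pabpc1 was higher at P20 in both genotypes, and Ran had log2 changes above 0 that did not pass.

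**Figure D2:**
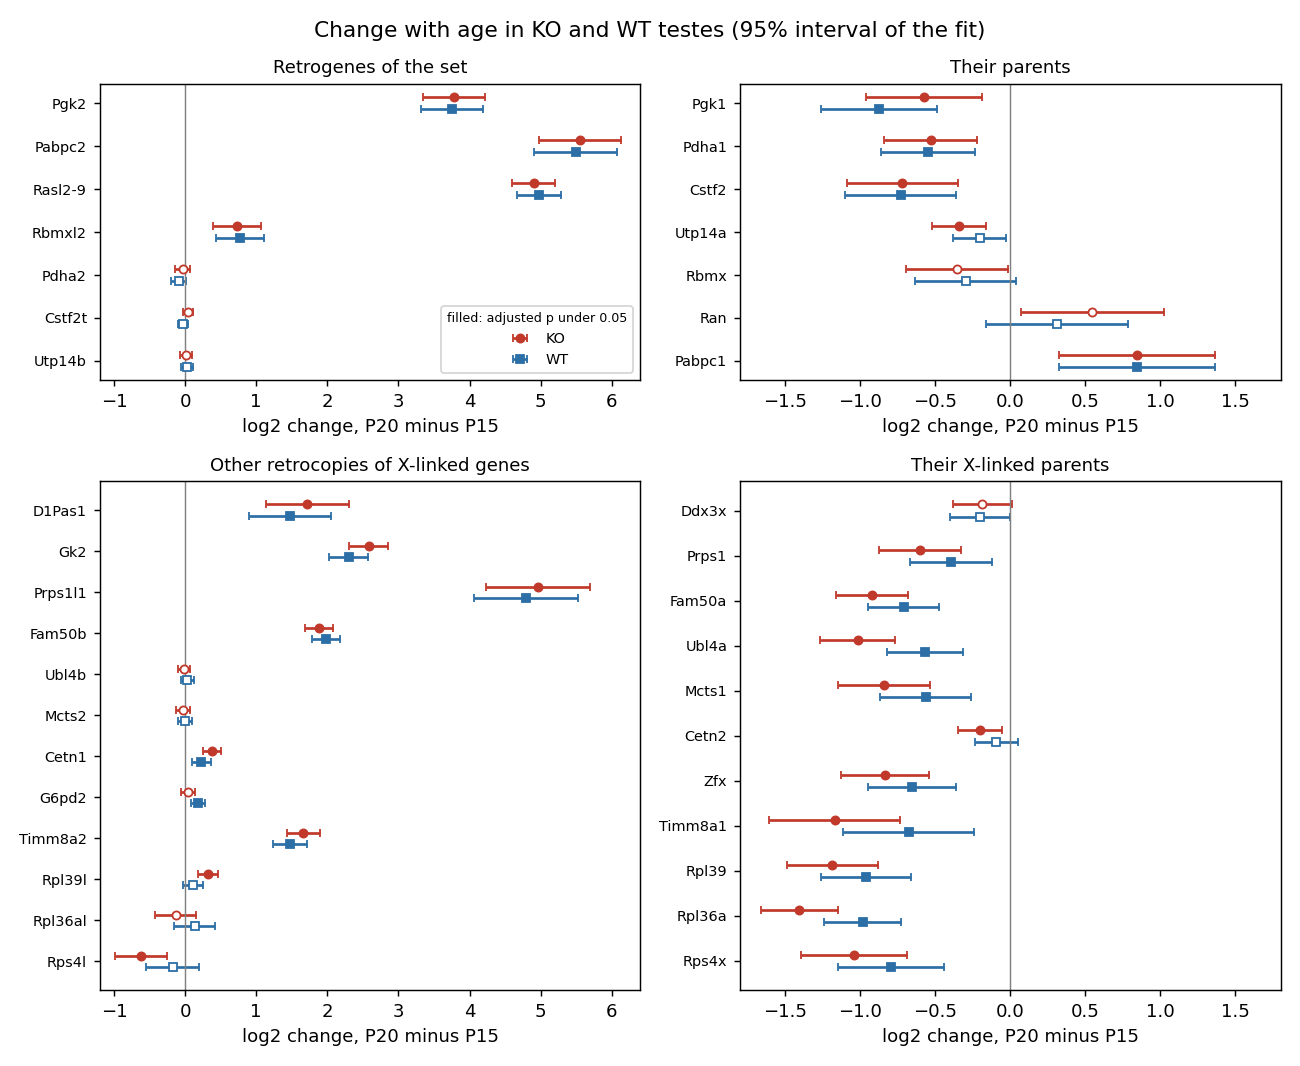
Log2 change between P20 and P15 with its 95% confidence interval for the retrogenes and their parents in KO and WT testes. The 4 detected retrogenes lie at 0.74 or more in each genotype and the 5 X-linked parents below 0.

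Pgk1, the X-linked phosphoglycerate kinase of other cells, was 8.88, 8.87 and 9.18 in KO testes and 9.16, 9.06 and 8.79 in WT testes at P20. At P15 it was 9.73, 9.81 and 9.11 in KO testes and 9.85, 9.98 and 9.80 in WT testes. The ages did not overlap in WT testes, while in KO testes the third P15 array lay within the range of the P20 arrays. Pgk1 fell by 0.58 ± 0.17 in KO testes (adjusted p = 0.0326) and by 0.87 ± 0.17 in WT testes (adjusted p = 0.00486). The call in KO testes was lost when KO P15 array 1 or 2 or KO P20 array 1 or 2 was left out, with an adjusted p of 0.101 to 0.12, and with both KO P20 arrays 1 and 3 left out, which leaves 1 KO array at P20, the log2 change was -0.68 and the adjusted p 0.125. Without KO P15 array 3 the call in KO testes stood. These values are of the brightest Pgk1 probe. A dimmer probe had log2 changes of -0.08 ± 0.05 in KO (adjusted p = 0.287) and -0.07 ± 0.05 in WT testes (adjusted p = 0.431). Another was below background on all arrays.

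Pdha1, the somatic E1 alpha subunit, averaged 9.15 ± 0.09 in KO and 9.29 ± 0.18 in WT testes at P20 (SD, n = 3 each), against 9.68 ± 0.32 in KO and 9.84 ± 0.07 in WT testes at P15. It fell by 0.53 ± 0.14 in KO testes (adjusted p = 0.0172) and by 0.55 ± 0.14 in WT testes (adjusted p = 0.0188). These calls were lost without KO P15 array 1 or 2 or KO P20 array 1 or 2 in KO testes (adjusted p 0.057 to 0.0656), and without WT P15 array 1 or 2 or WT P20 array 1 or 3 in WT testes (adjusted p 0.0568 to 0.0683). Cstf2, the parent of Cstf2t, averaged 10.29 ± 0.18 in KO and 10.13 ± 0.14 in WT testes at P20, against 11.01 ± 0.36 in KO and 10.86 ± 0.15 in WT testes at P15. It fell by 0.72 ± 0.17 in KO testes (adjusted p = 0.00856) and by 0.73 ± 0.17 in WT testes (adjusted p = 0.0104), so that the parent was measured well above background where its retrogene was not. A second, dimmer probe of Cstf2 had a log2 change of -0.09 ± 0.04 in KO testes (adjusted p = 0.196). In WT testes that probe was at least 1.11-fold lower at P20 (adjusted p = 0.0179).

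Utp14a, the parent of Utp14b, was dim, with 0 of 3 KO arrays and 2 of 3 WT arrays above background at P20. It was at least 1.18-fold lower at P20 in KO testes (adjusted p = 0.00885), and its log2 change was -0.20 ± 0.08 in WT testes (adjusted p = 0.108). Rbmx, the parent of Rbmxl2 and a splicing regulator in most tissues, had a log2 change of -0.36 ± 0.15 in KO testes (adjusted p = 0.128) and of -0.30 ± 0.15 in WT testes (adjusted p = 0.235). Without KO P15 array 3 the changes of Rbmx passed the test, with an adjusted p of 0.00387 in KO and 0.0492 in WT testes.

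Ran, the parent of Rasl2-9, averaged 9.04 ± 0.22 in KO and 9.05 ± 0.04 in WT testes at P20, against 8.49 ± 0.38 in KO and 8.74 ± 0.38 in WT testes at P15 (SD, n = 3 each). Its log2 change was 0.55 ± 0.21 in KO testes (adjusted p = 0.0941) and 0.31 ± 0.21 in WT testes (adjusted p = 0.401), and the change in KO testes passed without KO P15 array 1 (adjusted p = 0.0278), without WT P15 array 3 (0.0486) and under 5 other settings (0.0276 to 0.0494). Pabpc1, the main poly(A)-binding protein of other cells and the parent of Pabpc2, rose by 0.84 ± 0.23 in KO testes (adjusted p = 0.0219) and by 0.85 ± 0.23 in WT testes (adjusted p = 0.0272). All 3 of its probes rose in both genotypes. The call of its brightest probe was lost in KO testes without KO P15 array 1 or 3 or KO P20 array 1 or 2 (adjusted p 0.0514 to 0.0804), and in WT testes without WT P15 array 1 or 2 or any WT P20 array (adjusted p 0.0563 to 0.086). Probe sequences were not used here, so the share of a retrogene's signal that its parent contributes, or the reverse, was not tested.

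**Figure D3:**
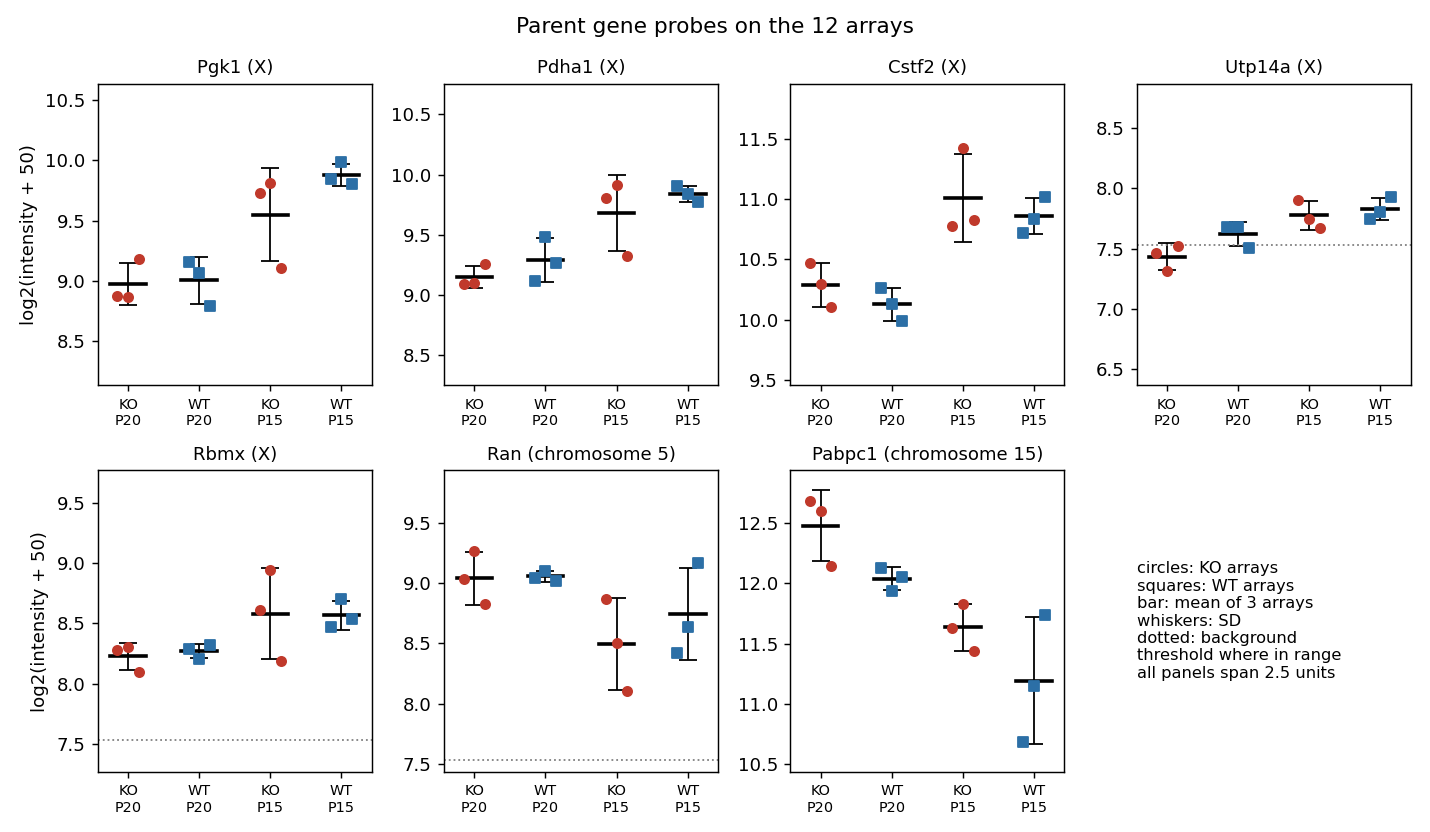
Levels of the parent genes on each of the 12 arrays, as log2(intensity + 50), with circles for KO, squares for WT, bars for the mean and whiskers for the SD of 3 arrays. Pgk1, Pdha1 and Cstf2 have lower means at P20 than at P15 in both genotypes, and Pabpc1 has higher ones.

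No change between KO and WT testes was detected at either age in the retrogenes with a probe, of which Pdha2, Cstf2t and Utp14b, below background on all arrays, could show none. These are levels of whole testes, in which the number of cells and the RNA per cell cannot be told apart. By limma 0 of 7 passed between KO and WT testes at P20, where 1.04% of all probes passed, and 0 of 7 at P15, where 0.00442% passed. At an unadjusted p under 0.05 the count was 0 of 7 at each age, beside 12% of all probes at P20 and 7.59% at P15. The median log2 change was 0.04 at P20 and 0.01 at P15, beside 0.00 at P20 and 0.01 at P15 over all named genes. KO and WT arrays overlapped for each of the 7 genes at both ages. The share of all probes with such overlap was not computed, so this only describes the 7 genes.

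At P20 the log2 change of Pgk2 in KO testes relative to WT testes was 0.04, with a 95% confidence interval of -0.40 to 0.48 (adjusted p = 0.975). That of Rasl2-9 was -0.01 (-0.31 to 0.30, adjusted p = 0.997), and that of Pabpc2 was -0.18 (-0.76 to 0.40, adjusted p = 0.873). With 3 arrays per group, changes of any size inside these intervals are compatible with the data. The intervals are not limits of detection, since a call also required the adjusted p to pass. Rbmxl2 was higher on 2 of 3 KO arrays than on any WT array, and on KO array 3 it was lower than on every WT array. Its log2 change was 0.22 (-0.12 to 0.56, adjusted p = 0.661). Its dimmer probe had 0.34 ± 0.11, with an unadjusted p of 0.0101 and an adjusted p of 0.207 by limma.

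At P15 the log2 change of Pgk2 was 0.01 (95% confidence interval -0.43 to 0.45, adjusted p = 0.998) and that of Rasl2-9 was 0.07 (-0.23 to 0.38, adjusted p = 0.963). Rbmxl2 had 0.25 (-0.08 to 0.59, adjusted p = 0.762). Pabpc2 had -0.24 (-0.82 to 0.35, adjusted p = 0.906), in which its highest KO array and its highest WT array were those with the most pachytene marker signal. When arrays were scaled to their 75th percentile instead, the median over all probes was 0.11 at P15, and 0 of the 7 genes passed. Over 25 alternative settings the log2 change at P15 ran from -0.04 to 0.22 for Pgk2 and from 0.00 to 0.20 for Rasl2-9.

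The KO effect itself did not differ detectably between the ages. By limma 0 of 7 genes passed the test of that difference, and 0.0552% of all probes passed. At an unadjusted p under 0.05 the count was 0 of 7, beside 7.07% of all probes. The differences on the log2 scale ran between -0.08 for Rasl2-9 and 0.08 for Cstf2t, and the interval of Pgk2 was -0.59 to 0.65. Of the parents, 0 of 5 X-linked and 0 of 2 autosomal ones passed between KO and WT testes at P20 or at P15. Utp14a had a log2 change of -0.19 ± 0.08 at P20 (unadjusted p = 0.04, adjusted p = 0.383 by limma) and 0 other parents had an unadjusted p under 0.05 at either age. Pabpc1 was higher on every KO array than on any WT array at P20 by its brightest probe, with 0.44 ± 0.23 (adjusted p = 0.521), while its other probes had -0.17 and -0.18.

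**Figure D4:**
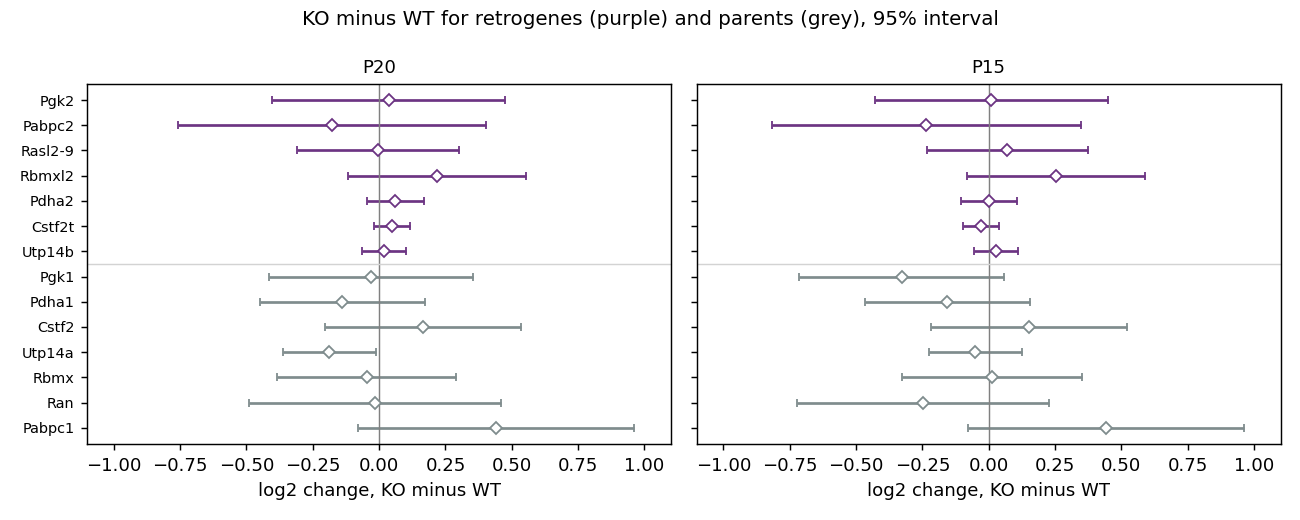
Log2 change in KO relative to WT testes at P20 (left) and P15 (right) with its 95% confidence interval, for the 7 retrogenes and the 7 parents. The intervals of all 7 retrogenes include 0 at both ages, and of the parents the interval of Utp14a at P20, -0.36 to -0.01, does not.

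Of 7 epididymal genes Defb2 and Adam7 were high on KO arrays 1 and 3 of P20, with 10.83 and 11.14 for Defb2 and 8.66 and 9.08 for Adam7. On KO array 2 of P20 Defb2 was 7.50 and Adam7 was 7.46, and on the WT arrays of P20 Defb2 reached 8.62 and Adam7 reached 7.70. The other 5 genes were below background on KO arrays 1 and 3 of P20. The adipocyte genes summed to 1833 to 1968 in KO and 808.1 to 1062 in WT testes at P20. At P15 they summed to 1582 to 2247 in KO and 1347 to 1875 in WT testes. At P20 2 of 4 of them, Adipoq and Lpl, were higher in KO testes, as were 0.992% of all named genes. Plin1 had a log2 change of -0.05 (limma adjusted p = 0.797), and Fabp4 was below background on all arrays. With KO arrays 1 and 3 of P20 left out, 1 KO array remains at P20 and takes its spread from the other groups. The log2 changes with age in KO testes were then 3.74 for Pgk2, 5.54 for Pabpc2, 4.94 for Rasl2-9 and 0.83 for Rbmxl2. The part of these genes' source tissues in the comparison of KO and WT testes was not tested.

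Other autosomal genes known as copies of X-linked genes were set beside the 7, and 12 of 16 had a probe. At P20 7 of 12 were higher and 1 was lower in KO testes, and 7 were higher and 0 lower in WT testes. Of all named genes 13.4% were higher and 21.6% lower in KO testes, and 11.2% were higher and 16.5% lower in WT testes. Prps1l1, a testis phosphoribosyl pyrophosphate synthetase, rose most, by 4.96 ± 0.33 in KO (31.2-fold) and 4.80 ± 0.33 in WT testes (27.8-fold). Gk2, a germ cell glycerol kinase, rose by 2.58 ± 0.13 in KO and 2.30 ± 0.13 in WT testes. Fam50b was at least 3.50-fold higher at P20 in KO and 3.96-fold higher in WT testes. D1Pas1, a testis RNA helicase of the DEAD-box family, rose by 1.72 ± 0.26 in KO and 1.47 ± 0.26 in WT testes, and Timm8a2, a copy of a mitochondrial import chaperone gene, rose by 1.66 ± 0.11 in KO and 1.48 ± 0.11 in WT testes. Rps4l, a ribosomal protein gene, was the 1 that fell, by 0.62 ± 0.17 in KO testes (adjusted p = 0.0184), and it was named after its value was seen.

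Of the X-linked parents of those genes 11 of 15 were measured, and 10 were lower at P20 in KO and 9 in WT testes, with a median log2 change of -0.92 in KO and -0.65 in WT testes. Of 711 X-linked genes 41.1% were lower in KO and 30.4% in WT testes. All 11 parents but only 421 of the 711 were above background in a group, so these shares are not directly comparable. The largest decreases were in the ribosomal protein genes Rpl36a, which fell by 1.40 ± 0.12 in KO and by 0.98 ± 0.12 in WT testes, and Rpl39, which fell by 1.18 ± 0.14 in KO and by 0.96 ± 0.14 in WT testes. Timm8a1 fell by 1.17 ± 0.20 in KO and by 0.68 ± 0.20 in WT testes. Ribosomal protein genes have many near-identical copies, so the assignment of their probes to 1 gene is uncertain. Between KO and WT testes 0 of the 12 copies and 0 of the 11 parents passed by limma at P20, where 4 copies and 3 parents had an unadjusted p under 0.05, as did 12% of all probes. At P15 0 of the 12 and 0 of the 11 passed, and 0 copies and 1 parent had an unadjusted p under 0.05, as did 7.59% of all probes.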

How the data were processed

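RNA of whole testes was measured on 12 Illumina bead arrays. BeadStudio was used, per the submitters' processing notes (version not given in the sources used here). Both deposited tables hold linear intensity values, 1 non-normalized and 1 as processed by the authors. Quantile normalization of the non-normalized intensities gave the authors' processed values to within 0.0124 in log2 (median difference 6.59e-05). Here the non-normalized intensities were quantile-normalized and log2 was taken after adding 50. These values are not background-subtracted, which compresses fold changes. Background was the mode of an array plus 1.645 standard deviations of the values below it. Where 0 of 3 arrays of the lower group exceeded it, a fold is given as at least its ratio to that threshold.

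The model of 4 group means was fitted to all 45281 probes with limma 3.58.1 (R 4.3.3), with 8 residual degrees of freedom and a prior of 2.14, after it was tested on simulated data. Of the probes 34885 had 1 gene symbol, 18 several, and 10378 were not listed. Detection p-values, control probes and slides were not used here, so neqc and a slide term could not be run. All genes of the set, their parents, up to 4 called genes of other lists by size and the 3 most similar profiles were named. The members and lists were chosen with earlier results of these data known. The 3 samples of a group are biological repeats per the labels, and their number limits the precision. Alternatives changed the normalization, background correction, offset, filter, variance prior, weights, groups fitted, replicate block, probe choice and arrays.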

Additional observations from a re-analysis of the deposited data

How the results depend on the processing

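Under 25 alternative settings (24 for the difference between ages, which cannot be fitted on the compared groups alone) the counts of retrogenes that passed were unchanged: 4 for P20 against P15 in KO and in WT testes and 0 for KO against WT at P20, at P15 and for their difference. With dim probes left out these counts are over 4 genes, since Pdha2, Cstf2t and Utp14b then have no value. A slide term was not run. Leaving out each array in turn gave 4 to 4 for each age comparison and 0 to 0 for each comparison with WT. The replicate block also gave 4, 4, 0, 0 and 0. Arrays with the same replicate number correlated by -0.345 to 0.188 in their deviations from the group means and arrays with other numbers by -0.256 to 0.387, so the numbers were not read as pairs. The block lost the Pabpc1 call in WT testes (adjusted p = 0.0594) and gave no other parent's call a change.

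Over members and parents 1679 of 1721 recomputed values kept their side of the threshold, 32 lost and 10 gained a call, 0 called values changed sign, and 101 uncalled ones did. All 42 changed calls were of parents. Besides the arrays named above, the Pgk1 call in KO testes was lost with cyclic loess (adjusted p = 0.0663), with only the compared groups (0.109) and with the mean over its probes (0.0583), and the Pdha1 call with cyclic loess in WT testes (0.0564) and with only the compared groups in KO testes (0.0662). Without KO P20 arrays 1 and 3 together, with 1 KO array left at P20 that takes its spread from the other groups, Pdha1 (log2 change -0.58, adjusted p = 0.122), Cstf2 (-0.71, 0.0917) and Pabpc1 (0.97, 0.0929) lost their calls in KO testes. Ran gained a call in KO testes with cyclic loess (0.0494), normexp with an offset of 50 (0.0478) or 16 (0.0276), dim probes left out (0.0473) and an intensity trend (0.029), and Rbmx gained one in WT testes with only the compared groups (0.0231). The causes were not tested. The limit is 3 arrays per group, and levels near background at P15 make the fold of Pgk2 and Pabpc2 depend on the background correction.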
